A study of Mus musculus with 2 samples.

Results

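The cells described here were collagen-expressing cells of the regenerating mouse digit tip that carried transcripts of Cilp2, Thbs4 or Tnn, in practice almost always Tnn. They were selected on their transcript levels in droplet single-cell libraries, where each barcode stands for the contents of 1 droplet and a unique molecular identifier (UMI) for 1 captured transcript. Levels per barcode are given as UMIs per 10000 UMIs of that barcode (CP10k). A barcode was a member when Col1a1, Col1a2 and Col3a1 together reached 30 CP10k, Cilp2, Thbs4 and Tnn together reached 3 CP10k, and its total was at least 5000 UMIs. Barcodes with Sfrp2 at 10 CP10k or more, Bglap and Bglap2 at 30 CP10k or more, or Mest, Gldn and Nell2 at 4 CP10k or more were left out. The rule found 802 members among 3777 collagen-positive barcodes and 5167 barcodes that passed the quality limits.

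The tissue came from a pair of lineage-tracing mouse lines, Lmx1bCreERT2;R26-LSL-TdT and PdgfraCreERT;R26-LSL-TdT, with 1 library for each line, 14 days after amputation. Mice of both lines, aged 10 to 12 weeks, had received tamoxifen at 3 mg per day for 4 days and were amputated 10 days later, so both libraries share the reporter allele, the drug and the injury. Only tissue distal to the amputation plane was dissociated, and the labels describe no sorting step. The number of animals behind each library is not given in the sources used here, and with 1 library per line no p-value was computed and mouse line and library cannot be told apart.

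Tendon cells are recognised by the transcription factor Scx, by Mkx, and, when mature, by the membrane protein Tnmd, and they lay down parallel collagen fibrils that small leucine-rich proteoglycans such as fibromodulin keep in order. Tnn encodes tenascin-N (also called tenascin-W), a large matricellular glycoprotein found around developing and remodelling bone, in periosteum and in some stem cell niches. In the digit tip, bone regrows from mesenchyme by direct ossification, while the flexor and extensor tendons end at the base of the same bone.

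In the Lmx1b library 485 of 1921 collagen-positive barcodes were members (25.2%, exact 95% binomial interval 23.3 to 27.3%). Of 1856 in the Pdgfra library 317 were (17.1%, 15.4 to 18.9%). The limit for Cilp2, Thbs4 and Tnn was reached by 713 barcodes of the Lmx1b library and 697 of the Pdgfra library. Those that failed another criterion stayed among the others, so members and others do not divide marker-positive from marker-negative barcodes. Among them, 111 (Lmx1b) and 243 (Pdgfra) had too few UMIs, and 88 and 107 were high in Mest, Gldn and Nell2. Members were deep barcodes, with medians of 33259 UMIs for Lmx1b and 36439 UMIs for Pdgfra, against 13908.5 UMIs in the other collagen-positive barcodes of the Lmx1b library and 3525 UMIs in those of the Pdgfra library. Intervals here and below cover counting error only, not the spread between cells or animals. The libraries shared 10 barcode sequences, none of them among members. Of the other collagen-positive barcodes, 54.9% for the Lmx1b library and 65.5% for the Pdgfra library also carried at least 10 CP10k of the markers of some other cell type, such as pericytes, endothelium or leukocytes. For that reason the counts over all genes, the gene lists and the leading genes are also set against a narrower group, the collagen-high others, with a collagen sum of at least 300 CP10k, at least 5000 UMIs and no such marker load. These numbered 359 barcodes for the Lmx1b library and 180 for the Pdgfra library, and the set was defined after the values had been seen.

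Within the members, 22 barcodes of the Lmx1b library (4.54%) and 59 of the Pdgfra library (18.6%) carried such a marker load themselves. The mural list (Rgs5, Notch3, Myh11, Mcam, Kcnj8) accounted for 10 and 36 of them, and the endothelial list for 6 and 21. Their median depths of 44634.0 UMIs in the Lmx1b library and 59252 UMIs in the Pdgfra library were above those of all members. The doublet scores of Scrublet placed 12 and 19 members among their library's highest-scoring barcodes, and none was removed. Summed over a set and scaled to 1000000 UMIs of that set (CPM, the unit of all levels of sets here), these 5 mural markers reached 213 CPM in members and 4042 CPM in the others of the Lmx1b library, and 634 CPM in members against 3812 CPM in the others of the Pdgfra library. With Cspg4, another listed mural gene, the sums were 657 CPM in members and 4247 CPM in the others of the Lmx1b library, and 893 CPM in members against 3961 CPM in the others of the Pdgfra library. The leukocyte markers reached 26.8 CPM in members and 299.8 CPM in the others of the Lmx1b library, and 180.3 CPM in members against 223 CPM in the others of the Pdgfra library. Skeletal muscle markers summed to 1.36 CPM in members of the Lmx1b library and 1.64 CPM in those of the Pdgfra library, with Ckm, Myod1 and Pax7 at 0 in both. Their part in the results was not tested. The comparison of leading genes and that of the libraries are also given without marker-carrying members, and the division of members by Ibsp leaves them out.

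The 3 marker genes contributed very unequally. Tnn, on chr1:160085029-160153580 (mm10, minus strand, coordinates from GENCODE vM21), supplied 96.2% of the marker UMIs of members for the Lmx1b library and 97.0% for the Pdgfra library. Tnn alone would have placed 479 of 485 and 312 of 317 barcodes in the set. Tnn averaged 1730.1 CPM in members and 249.8 CPM in the others in the Lmx1b library, and 1330.5 CPM in members against 348 CPM in the others of the Pdgfra library, values that follow from the rule.

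Cilp2 (chr8:69880369-69887687), a matrix protein of cartilage and tendon, was detected in 136 members of the Lmx1b library (28.0%) and 70 of the Pdgfra library (22.1%). It had 43.2 CPM in members and 3.69 CPM in the others of the Lmx1b library, and 17.6 CPM in members and 3.00 CPM in the others of the Pdgfra library. Thbs4 (chr13:92751590-92794818), a thrombospondin of tendon and muscle attachments, was detected in only 55 and 32 members. The 10 members richest in Thbs4 held 77.4% of all its member UMIs for the Lmx1b library and 86.1% for the Pdgfra library. Barcodes with all 3 genes numbered 28 and 15, so Cilp2 and Thbs4 marked small subsets of a Tnn-positive population.

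The marker sum per member had a median of 17.1 CP10k for the Lmx1b library and 12.3 CP10k for the Pdgfra library, with maxima of 77.7 and 53.7 CP10k. Just inside the limit, from 3 to under 4 CP10k, lay 23 and 29 members, and just outside it, from 2 to under 3 CP10k, lay 34 and 21 barcodes that met every other criterion. Fmod had 2637 CPM just inside and 2092 CPM just outside in the Lmx1b library, and 1859 CPM just inside and 1798 CPM just outside in the Pdgfra library. C1qtnf3 had 363 CPM just inside and 271 CPM just outside in the Lmx1b library, and 303 CPM just inside and 393 CPM just outside in the Pdgfra library. Rgs5, a pericyte gene, was lower just inside, with 172 CPM against 485 CPM just outside in the Lmx1b library and 778 CPM against 1539.8 CPM in the Pdgfra library. For Fmod and C1qtnf3 the limit passed through barcodes of similar level.

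Before the genes are described one by one, the contrast as a whole is given. A gene counted as measured with a mean of at least 5 CPM over both sides and as called when the sides were at least 2-fold apart on log2(CPM + 1). In the Lmx1b library 169 of 10054 measured genes (1.68%) were at least 2-fold higher in members and 872 (8.67%) at least 2-fold lower. In the Pdgfra library 109 of 10285 (1.06%) were at least 2-fold higher and 608 (5.91%) at least 2-fold lower. The median gene stood at −0.12 (Lmx1b) and −0.13 (Pdgfra) on the log2 scale, so scaling by that median ratio in place of total UMIs would raise each difference by as much. Against the collagen-high others 134 of 9523 genes (1.41%) were at least 2-fold higher and 197 (2.07%) at least 2-fold lower in the Lmx1b library, and 177 of 9859 (1.8%) were higher and 99 (1.0%) lower in the Pdgfra library. Against these others, which also lack the markers of other types, the surplus of lower genes was smaller in the Lmx1b library and absent in the Pdgfra library. The members kept their marker-carrying barcodes in these counts. In both libraries at once, 78 genes were at least 2-fold higher and 464 at least 2-fold lower against all others, and 56 and 58 against the collagen-high others. Without marker-carrying members the numbers against the collagen-high others were 49 higher and 70 lower in both libraries. These counts describe the sets the rule had cut out of the same data and carry no test. Counts within the gene lists below are to be read beside these shares of all measured genes.

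Tendon genes were present in part. Of the 5 measured tendon transcription factors, 1 (Scx) was at least 2-fold higher in members in both libraries, and Egr1 and Egr2 were at least 2-fold lower in the Lmx1b library only. Egr1 and Egr2 are also immediate-early genes, and of 13 dissociation stress genes 12 were at least 2-fold lower in members of the Lmx1b library and 6 in those of the Pdgfra library, whose part here was not tested. Scx, the basic helix-loop-helix factor of tendon progenitors, had 101 CPM in members and 27.2 CPM in the others of the Lmx1b library (3.73-fold, 3.40 to 4.09; here and below the ratio of CPM with its exact 95% Poisson interval). In the Pdgfra library it had 103 CPM in members and 49.3 CPM in the others (2.08-fold, 1.91 to 2.27). Against the collagen-high others the Scx ratio was 2.30-fold (2.09 to 2.54) in the Lmx1b library and 1.16-fold (1.05 to 1.28) in the Pdgfra one. Barcodes high in Mest, Gldn and Nell2 had a like amount of Scx, 108 and 117 CPM. Mkx, a homeobox factor of later tendon, had 28.0 CPM in members and 14.8 CPM in the others of the Lmx1b library, and 23.6 CPM in members against 21.4 CPM in the others of the Pdgfra library.

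Tnmd, the mature tendon gene, was not a feature of the members as a whole. It had 29.3 CPM in members and 30.7 CPM in the others of the Lmx1b library (0.955-fold, 0.851 to 1.07), and 32.9 CPM in members and 104 CPM in the others of the Pdgfra library (0.317-fold, 0.286 to 0.350). Barcodes excluded for high Sfrp2 carried far more, 328 and 511 CPM. Kera, a proteoglycan of tendon and cornea, had 1.48 CPM in members and 1.78 CPM in the others of the Lmx1b library, and 1.91 CPM in members against 3.12 CPM in the others of the Pdgfra library. With Scx shared with neighbouring cells, Tnmd and Kera low and few barcodes with Thbs4, the data go against calling the whole set tendon cells, and it is called the Tnn-positive members here.

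**Figure D1:**
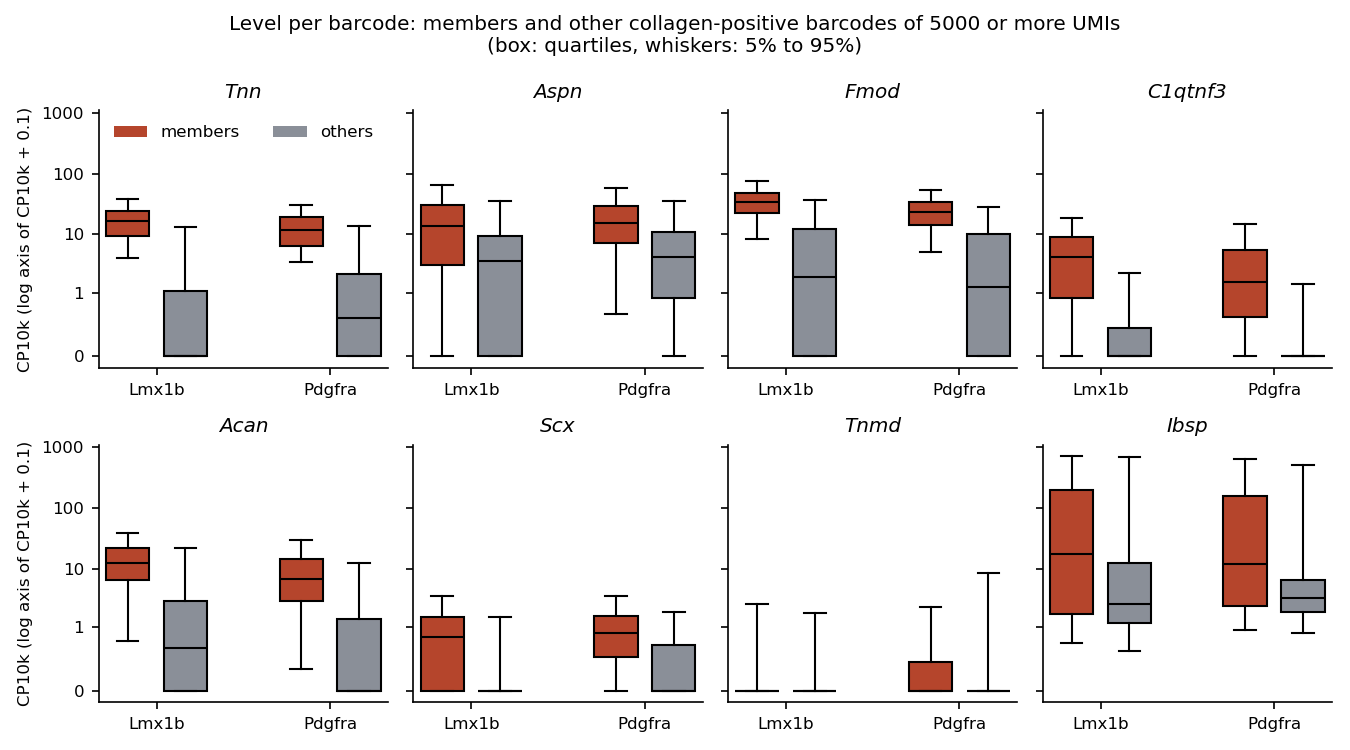
Box plots of CP10k per barcode (log axis of CP10k + 0.1) for 8 genes in members and in other collagen-positive barcodes of at least 5000 UMIs, in each library, with boxes at the quartiles and whiskers from the 5% to the 95% quantile. The middle of the Fmod, C1qtnf3 and Acan boxes lies higher in members in both libraries, Tnmd is at or near 0 in most members, and Ibsp spans the widest range within members.

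The other 3 markers given with the label behaved differently from each other. Aspn (asporin, a proteoglycan of periosteum, tendon and ligament) had 1826 CPM in members and 822 CPM in the others of the Lmx1b library (2.22-fold, 2.18 to 2.26), and 1799 CPM in members against 1010.4 CPM in the others of the Pdgfra library (1.78-fold, 1.75 to 1.81). It was higher still in the Mest-, Gldn- and Nell2-high barcodes, at 2937 and 2284 CPM. Megf6, a secreted protein with epidermal growth factor repeats, was 3.30-fold (3.09 to 3.52) higher in members of the Lmx1b library, but in the Pdgfra library the ratio was 1.63 against all others and 0.888 against the collagen-high others. Itgbl1, a secreted integrin-like protein, was 3.65-fold (3.41 to 3.91) higher in members in the Lmx1b library and 2.49-fold (2.31 to 2.69) in the Pdgfra library.

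The gene with the greatest excess in both libraries was C1qtnf3 (chr15:10952332-10980150), a secreted C1q- and TNF-related protein described in growing cartilage. It had 672 CPM in members and 63.3 CPM in the others of the Lmx1b library (10.6-fold, 10.1 to 11.2), and 510.4 CPM in members and 68.5 CPM in the others of the Pdgfra library (7.45-fold, 7.003 to 7.93). Per member it ran from 0 over a median of 4.14 to 18.8 CP10k (5% and 95% quantiles) in the Lmx1b library, and from 0 over 1.54 to 15.02 CP10k in the Pdgfra library, so some members had none. After thinning every barcode to 5000 UMIs, 70.5% of members and 11.0% of the others of that depth had a C1qtnf3 UMI in the Lmx1b library, and 54.9% of members against 8.36% of the others in its Pdgfra counterpart. Leukocyte-marked barcodes, which should lack it, reached 3.68% and 0.746% at median depths of 26346 and 22054 UMIs before thinning. The excess also held against the collagen-high others, at 6.18-fold (5.83 to 6.56) in the Lmx1b library and 4.18-fold (3.88 to 4.51) in the Pdgfra one.

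Adamts18, Tspan2, Pamr1 and Zfp185 were also among the 20 genes with the largest excess shared by both libraries. Adamts18, a secreted metalloprotease, had 63.1 CPM in members and 10.2 CPM in the others of the Lmx1b library (6.17-fold, 5.37 to 7.13), and 45.5 CPM in members against 10.3 CPM in the others of the Pdgfra library (4.39-fold, 3.72 to 5.22). Tspan2, a tetraspanin, had 156 CPM in members and 44.0 CPM in the others of the Lmx1b library (3.55-fold, 3.31 to 3.82), and 122 CPM in members against 34.6 CPM in the others of the Pdgfra library (3.52-fold, 3.21 to 3.87). Its ratio to the collagen-high others was 2.68 and 3.70. Pamr1, a secreted protein with a peptidase-like domain, had 28.4 CPM in members and 8.39 CPM in the others of the Lmx1b library, and 23.0 CPM in members against 7.12 CPM in the others of the Pdgfra library. Zfp185, a LIM-domain protein of the actin cytoskeleton, had 19.4 CPM in members and 4.32 CPM in the others of the Lmx1b library, and 18.1 CPM in members against 5.41 CPM in the others of the Pdgfra library.

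The remaining genes of that group had smaller or less even excesses. Fam180a was 3.20-fold and 3.31-fold higher, Sbsn (suprabasin, overlapping Tmem147os) 2.70-fold and 2.86-fold, Pcp4 (a calmodulin-binding peptide) 3.38-fold and 4.54-fold, and Bcat1 (a branched-chain aminotransferase) 3.87-fold and 2.63-fold, each in the Lmx1b and the Pdgfra library in that order. Gsg1l, an auxiliary subunit of AMPA receptors in the brain, was 6.68-fold and 3.04-fold higher at levels of 23.5 and 11.2 CPM in members. The noncoding RNA Miat was 4.09-fold and 5.44-fold higher, and Gm17455, whose annotation overlaps Cdh23 so that reads could be shared, 7.90-fold and 5.98-fold. Pcp4 rested on few cells, since 10 members held 60.2% and 67.6% of its UMIs.

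**Figure D2:**
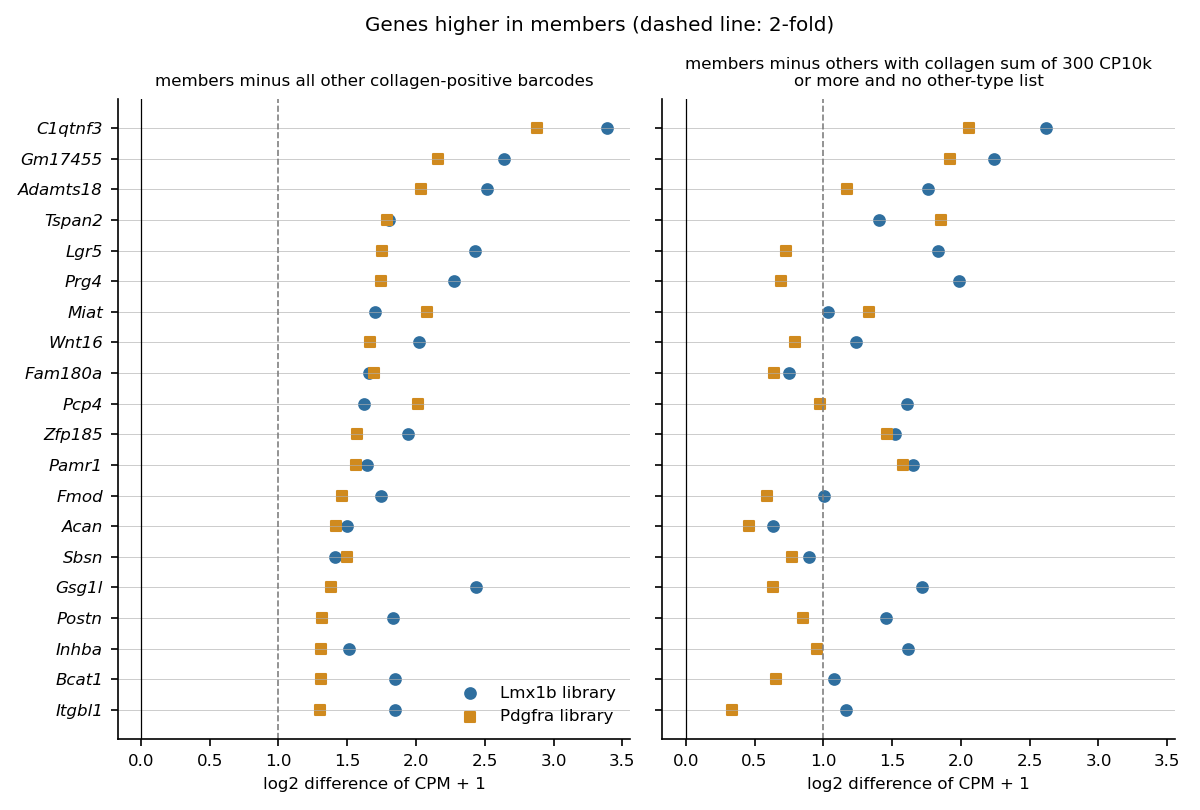
Log2 difference of CPM + 1, members minus others, for the 20 genes with the largest excess shared by both libraries, against all other collagen-positive barcodes (left) and against the collagen-high others (right), with circles for the Lmx1b and squares for the Pdgfra library and the dashed line at 2-fold. All points on the left lie beyond the line, whereas on the right 7 of the 20 genes do so in both libraries.

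Against the collagen-high others, 7 of these 20 genes were still at least 2-fold higher in both libraries, and 8 were when members with another type's markers were also left out: C1qtnf3, Gm17455, Adamts18, Tspan2, Miat, Zfp185, Pamr1 and Inhba. Fmod and Acan were not among them, with ratios to the collagen-high others of 2.01 and 1.504 for Fmod and 1.55 and 1.37 for Acan in the Lmx1b and the Pdgfra library. Much of their excess over all other collagen-positive barcodes was therefore shared with other collagen-rich cells.

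Matrix genes were prominent in members, and high collagen was itself a criterion. The collagen sum had a median of 1039 CP10k in members and 171 CP10k in the others of the Lmx1b library, and 739 CP10k in members against 145 CP10k in the others of the Pdgfra library. Of the tendon and ligament matrix list without the rule's own genes, 3 of 12 measured genes (Fmod, Tnc, Col12a1) were at least 2-fold higher and 3 (Chad, Col14a1, Col22a1) at least 2-fold lower in the Lmx1b library, with a median of 0.09 on the log2 scale. Among Pdgfra barcodes 2 of 11 (Fmod, Col12a1) were higher and 1 (Tnmd) lower, with a median of 0.52. Against the collagen-high others the medians were −0.28 and −0.33.

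Fmod (fibromodulin), which binds collagen fibrils and limits their thickness, had 3663 CPM in members and 1092 CPM in the others of the Lmx1b library (3.35-fold, 3.31 to 3.40). For Pdgfra it had 2650.0 CPM in members and 961 CPM in the others (2.76-fold, 2.71 to 2.81). Nearly all members carried it, from 8.35 to 74.5 CP10k around a median of 34.1 CP10k in the Lmx1b library and from 5.03 to 54.9 CP10k around 23.4 CP10k in the Pdgfra library (5% and 95% quantiles). Col12a1, a fibril-associated collagen of tendon, ligament and periosteum, had 2379 CPM in members and 595 CPM in the others of the Lmx1b library, and 1717 CPM in members against 732 CPM in the others of the Pdgfra library. Comp, the pentameric matrix protein of cartilage and tendon, was lower in members than in the collagen-high others, at 0.611-fold (0.604 to 0.617) in the Lmx1b library and 0.679-fold (0.669 to 0.690) in the Pdgfra one, although its ratio to all others was 1.18 and 1.43.

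Among matricellular proteins, which signal between matrix and cell rather than build fibres, 7 of 20 measured genes were at least 2-fold higher and 4 at least 2-fold lower in the Lmx1b library, and 4 and 2 of 20 in the Pdgfra library. The shares of all measured genes were 1.68% and 1.06% higher and 8.67% and 5.91% lower. The list medians were 0.28 and 0.49. Postn (periostin, a protein of periosteum and ligament) had 3563 CPM in members and 1002 CPM in the others of the Lmx1b library (3.56-fold, 3.50 to 3.61), and 3244 CPM in members against 1305 CPM in the others of the Pdgfra library (2.49-fold, 2.45 to 2.53). Tgfbi, an adhesion protein induced by TGF-beta, had 288 CPM in members and 102 CPM in the others of the Lmx1b library, and 253 CPM in members against 102 CPM in the others of the Pdgfra library, and was 2.90-fold and 2.30-fold higher than in the collagen-high others. Thbs3, another thrombospondin, was 2.61-fold and 2.25-fold higher. Tnc, the tenascin of tendon and wounds, was 2.18-fold higher in the Lmx1b library, and its ratio in the Pdgfra library was 1.93. Relative to the collagen-high others 3 of 19 genes (Postn, Tgfbi, Itgbl1) were higher in the Lmx1b library and 2 of 20 (Tgfbi, Sparcl1) in the Pdgfra library. Spp1 (osteopontin) was lower than in the collagen-high others, with ratios of 0.329 and 0.507.

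Some enzymes that modify collagen were also higher in members, with fewer genes past 2-fold but a higher list median in each library. Of 23 measured genes 4 (Loxl2, P4ha2, P4ha3, P3h4) were at least 2-fold higher and 1 (Loxl4) at least 2-fold lower in the Lmx1b library, and of 22 genes 2 (P4ha2, Plod2) were higher and none lower in the Pdgfra library. P4ha2, a subunit of prolyl 4-hydroxylase, had 248 CPM in members and 106 CPM in the others of the Lmx1b library, and 166 CPM in members against 66.5 CPM in the others of the Pdgfra library. The medians of 0.59 and 0.59 on the log2 scale stood above those of all genes, but against the collagen-high others they were 0.26 and 0.10.

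Some cartilage genes were higher in members than in all others, but mostly not when set against the collagen-high others. Of 10 measured cartilage genes 5 (Sox9, Sox6, Acan, Matn3, Lect1) were at least 2-fold higher in the Lmx1b library and 3 (Sox9, Acan, Matn3) in the Pdgfra library, with Col10a1 at least 2-fold lower in both. Relative to the collagen-high others only Lect1 was at least 2-fold higher in the Lmx1b library and none of the 10 genes in the Pdgfra library, while Col10a1 was lower in both and Col2a1 in the Lmx1b library. Sox9, the transcription factor that starts cartilage and attachment-site formation, had 134 CPM in members and 54.2 CPM in the others of the Lmx1b library (2.47-fold, 2.30 to 2.64), and 132 CPM in members against 53.5 CPM in the others of the Pdgfra library (2.47-fold, 2.28 to 2.67). Its ratio to the collagen-high others was 1.52 and 1.87. Acan (aggrecan, the large proteoglycan of cartilage) had 1690.1 CPM in members and 598 CPM in the others of the Lmx1b library, and 1265 CPM in members against 474 CPM in the others of the Pdgfra library. Col2a1, the main collagen of cartilage, had 2206 CPM in members and 3791 CPM in the others of the Lmx1b library, and 2239 CPM in members against 2206 CPM in the others of the Pdgfra library, and 10 members held 62.7% and 61.5% of its UMIs. For Matn3, too, 10 members held 61.9% (Lmx1b) and 66.5% (Pdgfra) of the UMIs.

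Osteogenic genes were present, whereas barcodes with the mature osteoblast genes Bglap and Bglap2 had been removed by the rule. Sp7 (osterix, the factor of osteoblast commitment) had 170.0 CPM in members and 83.3 CPM in the others of the Lmx1b library, and 120.5 CPM in members against 50.2 CPM in the others of the Pdgfra library. It was 1 of 2 genes of 12 measured that were at least 2-fold higher in the Lmx1b library, with Ifitm5, and the only 1 in the Pdgfra library. No gene of the list was at least 2-fold higher than in the collagen-high others in either library, with ratios of 1.22 and 1.34 for Sp7 and list medians of −0.50 and −0.41 on the log2 scale. Ibsp (bone sialoprotein) had 17274 CPM in members and 14865 CPM in the others of the Lmx1b library, and 16983 CPM in members against 10573 CPM in the others of the Pdgfra library. The osteocyte genes Dmp1 and Phex were at least 2-fold lower in the Lmx1b library, Dmp1 with 5.12 CPM in members and 102 CPM in the others, but not in the Pdgfra library, with 21.1 CPM in members and 26.3 CPM in the others. Relative to the collagen-high others both were at least 2-fold lower in both libraries, Dmp1 at 0.0278-fold (0.0223 to 0.0344) in the Lmx1b library and 0.378-fold (0.323 to 0.441) in the Pdgfra one. Of 6 measured osteoblast precursor genes, C1qtnf3, Adamts18 and Enpp1 were higher in both libraries, and C1qtnf3 and Adamts18 also relative to the collagen-high others. That list had been drawn up with C1qtnf3 and Adamts18 known from these data, so its count is no separate evidence.

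Single Wnt and TGF-beta genes were higher or lower in members. Among 19 measured Wnt ligands and receptors, 2 (Wnt16 and Lgr5) were at least 2-fold higher in both libraries. Wnt16, a ligand known for its effect on cortical bone, had 95.1 CPM in members and 22.7 CPM in the others of the Lmx1b library (4.19-fold, 3.79 to 4.62), and 95.8 CPM in members against 29.5 CPM in the others of the Pdgfra library (3.24-fold, 2.93 to 3.60). Lgr5, a receptor for R-spondins whose annotation overlaps A930009A15Rik, had 26.6 CPM in members and 4.11 CPM in the others of the Lmx1b library (6.46-fold, 5.18 to 8.12), and 35.3 CPM in members against 9.76 CPM in the others of the Pdgfra library (3.62-fold, 3.03 to 4.34). Only 107 of 485 and 92 of 317 members had an Lgr5 UMI, and 10 members held 34.5% and 37.3% of its UMIs. The R-spondin gene Rspo3 was lower, with 12.1 CPM in members and 64.5 CPM in the others of the Lmx1b library, and 21.7 CPM in members against 57.9 CPM in the others of the Pdgfra library. The Wnt list's medians were −0.14 and 0.02. Compared with the collagen-high others, Wnt16 was 2.39-fold (2.16 to 2.66) and Lgr5 3.96-fold (3.11 to 5.09) higher in the Lmx1b library, but their ratios in the Pdgfra library were 1.75 and 1.69, under 2-fold.

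Of 16 measured TGF-beta ligands, receptors and binding proteins, Inhba was at least 2-fold higher in both libraries and Tgfb2 in the Lmx1b library, while Ltbp4 and Fst were lower in both. Inhba, which encodes the activin A subunit, had 129.7 CPM in members and 44.7 CPM in the others of the Lmx1b library (2.90-fold, 2.69 to 3.12), and 158 CPM in members against 63.2 CPM in the others of the Pdgfra library (2.50-fold, 2.32 to 2.69). Fst, whose product follistatin binds and blocks activin, had 33.3 CPM in members and 145 CPM in the others of the Lmx1b library, and 56.6 CPM in members against 279 CPM in the others of the Pdgfra library. Compared with the collagen-high others none of the 16 genes was at least 2-fold lower, with Fst ratios of 0.646 and 0.577. Tgfb2 was then 2.57-fold and 2.35-fold higher, and Inhba 3.11-fold higher in the Lmx1b library with a ratio of 1.95 in the Pdgfra library. Ltbp4 turned round in the Pdgfra library, with 85.6 CPM in members and 28.8 CPM in the collagen-high others (2.97-fold, 2.54 to 3.49), and had 44.6 CPM in members without another type's markers. Of 8 measured TGF-beta targets 3 (Tgfbi, Scx, Timp1) were higher in both libraries, and Tgfbi alone was so in both relative to the collagen-high others. None of the measured BMP genes was at least 2-fold higher in either library, and 2 of 14 and 1 of 15 were lower. Over all measured genes 1.68% and 1.06% were higher and 8.67% and 5.91% lower, so counts in so short a list do not set BMP genes apart. Prg4 (lubricin, the lubricant of joint and tendon surfaces) had 296 CPM in members and 60.3 CPM in the others of the Lmx1b library (4.90-fold, 4.62 to 5.20), and 183 CPM in members against 53.8 CPM in the others of the Pdgfra library (3.40-fold, 3.15 to 3.66). Its ratio to the collagen-high others was 4.01 and 1.62, and 42.7% and 47.0% of its member UMIs lay in 10 barcodes.

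The 12 genes with the largest shared deficit mostly marked other kinds of cell. S100a8 and S100a9 (neutrophil proteins), Cd74 and H2-Aa (antigen presentation), and Gfra3, Col28a1 and Cadm4 (genes of nerve-associated cells) were among them, as were Cntn1 (contactin) and the imprinted gene Dlk1. Members had 3.35 CPM of Cd74 in the Lmx1b library, against 121 CPM in the others, and 3.07 CPM in the Pdgfra library, against 60.7 CPM in the others. On log2(CPM + 1) only Epha5, Cyp2f2 and Gm26771 were still at least 2-fold lower than in the collagen-high others in both libraries. Gm26771 overlaps Sfrp2, a gene of the rule. Cntn1 had plain CPM ratios of 0.152 (Lmx1b) and 0.197 (Pdgfra) to those others but did not pass in both with 1 CPM added. Epha5, an ephrin receptor, had 1.42 CPM in members and 37.8 CPM in the others of the Lmx1b library, and 6.61 CPM in members against 128 CPM in the others of the Pdgfra library. In Sfrp2-high barcodes Epha5 reached 626 and 789 CPM. Cyp2f2, a cytochrome P450, had 0.739 CPM in members and 19.2 CPM in the others of the Lmx1b library, and 3.82 CPM in members against 123 CPM in the others of the Pdgfra library.

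Genes of the mesenchyme under the nail were lower in members in part. Of 9 measured genes of that list 5 were at least 2-fold lower in the Lmx1b library, and of 12 genes 8 in the Pdgfra library, with none higher in either, at medians of −1.20 and −1.36 on the log2 scale. Relative to the collagen-high others 3 of 8 and 4 of 11 measured genes were lower, Epha5 among them in both libraries. The list had Epha5 and Rspo4 on it and the rule left out Sfrp2-high barcodes, which carry these genes, so the count is not independent of the rule. Msx1, a homeobox factor of the nail region and the regenerating tip, had 237 CPM in members and 547 CPM in the others of the Lmx1b library, and 259 CPM in members against 580.4 CPM in the others of the Pdgfra library. Lmx1b itself had 0.341 CPM in members and 2.42 CPM in the others of the Lmx1b library, and 2.25 CPM in members against 16.3 CPM in the others of the Pdgfra library.

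Barcodes of at least 5000 UMIs that the rule set aside were compared as neighbouring sets. The sets were 56 and 103 Sfrp2-high, 98 and 125 Mest-, Gldn- and Nell2-high, 124 and 20 Bglap-high, and 651 and 410 low-marker barcodes in the Lmx1b and Pdgfra library. C1qtnf3 had 672 and 510.4 CPM in members, against 121 and 57.5 CPM in the Mest-, Gldn- and Nell2-high set and 29.4 and 25.3 CPM in the Bglap-high set. Itgbl1 did not separate members, at 180.1 and 139.7 CPM, from the Mest-, Gldn- and Nell2-high set, at 208 and 140.5 CPM. Acan separated these neighbours, with 1690.1 and 1265 CPM in members against 529.5 and 328 CPM in the Mest-, Gldn- and Nell2-high set. Spp1 was lower in members, at 5895 and 5691 CPM, than in the Bglap-high set, at 25923 and 39192 CPM. The low-marker set was rich in the pericyte gene Rgs5, and members had 161 and 498 CPM of Rgs5, against 5079 and 6053 CPM in that set.

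**Figure D3:**
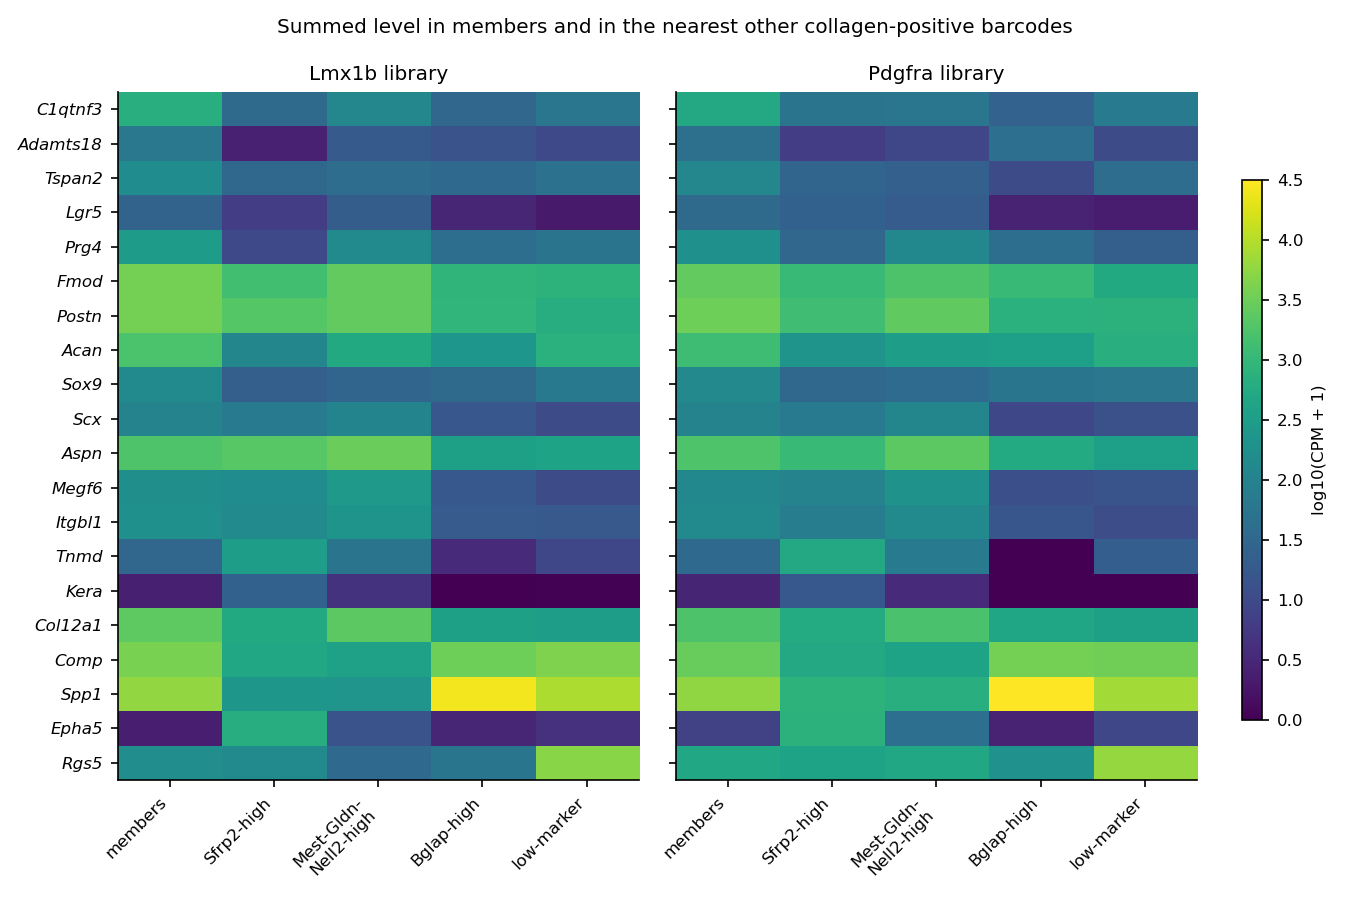
Heat map of summed levels, log10(CPM + 1), of 20 genes (rows) in members and in 4 neighbouring sets of collagen-positive barcodes (columns) in the Lmx1b library (left) and the Pdgfra library (right). Members share Aspn, Megf6, Itgbl1, Scx and Col12a1 with the Mest-, Gldn- and Nell2-high set, and stand above it in C1qtnf3, Acan, Sox9, Comp and Spp1 in both libraries.

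The members were not uniform, and Ibsp varied widely among them. It ran from 0.497 over a median of 17.3 to 706 CP10k in the Lmx1b library and from 0.888 over 11.9 to 648 CP10k in the Pdgfra library (5% and 95% quantiles). Members without another type's markers were divided at 5 and 100 CP10k of Ibsp, limits set after the values had been seen. The 3 ranges held 190, 118 and 155 members among Lmx1b and 106, 76 and 76 among Pdgfra barcodes, with 67 and 55 members within a factor of 2 of the lower limit and 78 and 42 of the upper. They are ranges of a continuous level and not cell types. Ibsp had a median of 1.38 and 2.53 CP10k in leukocyte-marked barcodes, which should lack it, so Ibsp in the lowest range cannot be told apart from free RNA. Median depth was higher at the high end, 29335, 33175.5 and 42926 UMIs from low to high in the Lmx1b library and 27354, 32502.5 and 49145.5 UMIs in the Pdgfra library.

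Tnmd, Scx and Thbs4 were highest at the low end, but not every tendon gene was. Tnmd had 74.2, 10.4 and 3.64 CPM from the lowest to the highest Ibsp range in the Lmx1b library and 82.7, 12.5 and 13.2 CPM in the Pdgfra library. The share of members with a Tnmd UMI was 36.3, 13.6 and 5.16% for Lmx1b and 42.5, 14.5 and 14.5% for Pdgfra, although the high end was the deeper one. At 5000 UMIs per barcode 9.07% of all Lmx1b and 11.0% of all Pdgfra members had one, against 0% and 0.746% of leukocyte-marked barcodes. Scx had 153, 121 and 52.3 CPM in the Lmx1b library and 165, 126 and 60.8 CPM in the Pdgfra library in the same order. Thbs4 had 62.8, 7.21 and 6.66 CPM in the Lmx1b library and 67.5, 0.321 and 13.7 CPM in the Pdgfra library, in few barcodes. Mkx was similar throughout, with 28.8, 31.6 and 25.4 CPM in the Lmx1b library and 28.2, 25.7 and 26.9 CPM in the Pdgfra library. The ratio of the highest to the lowest range was 0.908 and 0.907 for Col12a1, and the matrix genes Comp and Chad, described next, were highest at the high end. The same low end had the most Lgr5, Aspn and Mfap5, a microfibril protein of connective tissue. Lgr5 had 62.8, 16.9 and 3.03 CPM in the Lmx1b library and 102, 13.2 and 6.28 CPM in the Pdgfra library. Aspn had 3185, 2219.7 and 426 CPM in the Lmx1b library and 2767, 2629 and 857 CPM in the Pdgfra library. Mfap5 had 931, 251 and 56.6 CPM in the Lmx1b library and 869, 361 and 159.6 CPM in the Pdgfra library. Msx1 and Pdgfra, genes of undifferentiated mesenchyme, were also highest there. Msx1 had 467, 169 and 59.4 CPM in the Lmx1b library and 459, 187 and 116 CPM in the Pdgfra library. Pdgfra had 156, 96.0 and 64.5 CPM in the Lmx1b library and 165, 94.1 and 73.5 CPM in the Pdgfra library.

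Several skeletal genes ran in the opposite direction. Sox9 had 41.0, 133 and 226 CPM from the lowest to the highest Ibsp range in the Lmx1b library and 40.8, 109.8 and 233 CPM in the Pdgfra library. Acan had 875, 1671 and 2487 CPM in the Lmx1b library and 527, 1177 and 2111 CPM in the Pdgfra library. Comp had 799.7, 1786 and 8346 CPM in the Lmx1b library and 488, 1141 and 6206 CPM in the Pdgfra library. The steps were larger for Col11a2, a chain of a cartilage collagen, which had 8.71, 127 and 1430.2 CPM in the Lmx1b library and 11.4, 116 and 949.8 CPM in the Pdgfra library. Chad (chondroadherin) had 5.19, 11.9 and 204 CPM in the Lmx1b library and 3.30, 9.95 and 307 CPM in the Pdgfra library. It rested on few cells, since 10 of all members held 59.4% (Lmx1b) and 63.2% (Pdgfra) of its UMIs. The high end also had the most of a pair of osteoblast genes, the membrane channel Panx3 and Ifitm5. Panx3 had 5.36, 69.7 and 344 CPM in the Lmx1b library and 3.30, 76.1 and 299 CPM in the Pdgfra library. Ifitm5 had 3.01, 103 and 835 CPM in the Lmx1b library and 1.80, 49.8 and 457 CPM in the Pdgfra library. Col2a1 reached 5674 CPM for Lmx1b and 5996 CPM for Pdgfra at the high end, but its median there was only 0.390 and 0.765 CP10k, so most of it lay in a minority of barcodes.

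Of the genes that set the members apart, some followed each end and some neither. C1qtnf3 had 311, 813 and 939 CPM across the ranges in the Lmx1b library and 177, 722 and 790.4 CPM in the Pdgfra library, and Adamts18 had 7.03, 81.6 and 105 CPM in the Lmx1b library and 3.00, 55.5 and 89.7 CPM in the Pdgfra library. Both were lowest where Tnmd and Scx were highest. Postn had 5191, 4348 and 1641 CPM in the Lmx1b library and 4410.5, 4201 and 2136 CPM in the Pdgfra library, with the least at the high end. Fmod varied little, with 4186, 3755 and 3295 CPM in the Lmx1b library and 2850.0, 2904 and 2795 CPM in the Pdgfra library. Tnn, the gene that defined the set, had 2218, 2109 and 1119 CPM in the Lmx1b library and 1704, 1758 and 993 CPM in the Pdgfra library. The proliferation gene Mki67 was lowest at the high end, with 57.6, 68.4 and 8.78 CPM in the Lmx1b library and 27.0, 74.2 and 12.1 CPM in the Pdgfra library. Of all members, 10 held 52.6% (Lmx1b) and 67.6% (Pdgfra) of its UMIs.

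**Figure D4:**
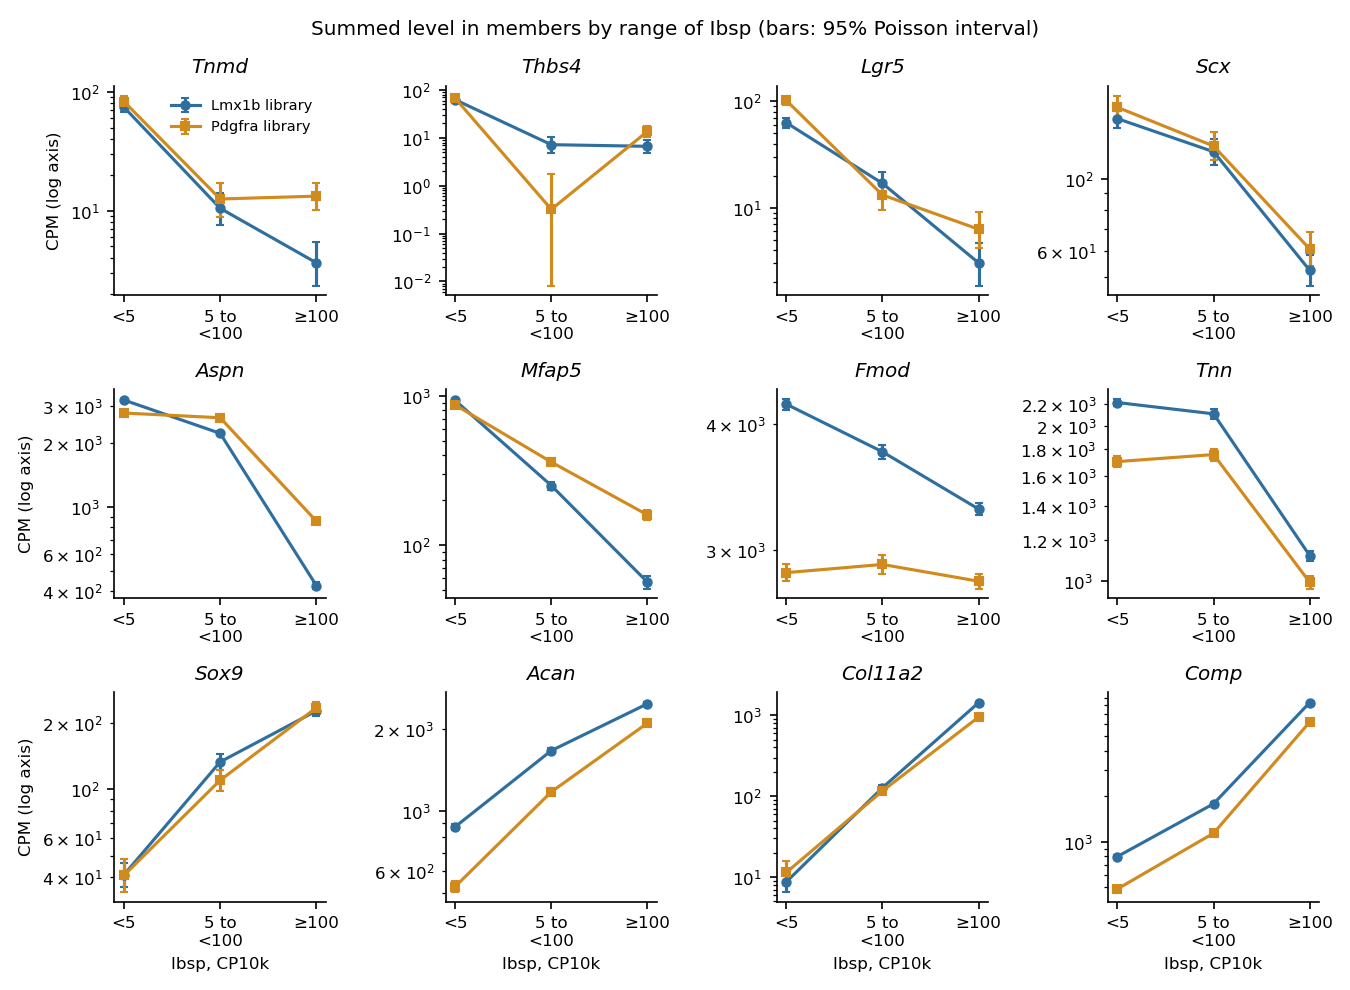
Summed level in CPM (log axes, each panel with its own range) of 12 genes in members without another type's markers, by range of Ibsp in CP10k, with circles for the Lmx1b library, squares for the Pdgfra library and bars for the 95% Poisson interval. Tnmd, Scx, Lgr5, Aspn and Mfap5 are highest where Ibsp is lowest, Sox9, Acan, Col11a2 and Comp where it is highest, and Fmod changes by less than 1.5-fold.

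Members with Cilp2 and Thbs4 together at 1 CP10k or more, 64 for the Lmx1b library and 29 for the Pdgfra library, were set against the remaining members, although 55 and 25 members lay within a factor of 2 of that limit. Scx had 187 CPM in them and 94.3 CPM in the remaining members of the Lmx1b library, and 151 CPM in them against 106 CPM in the remaining members of the Pdgfra library. Tnmd had 94.1 CPM in them and 22.3 CPM in the remaining members of the Lmx1b library, and 50.1 CPM in them against 32.1 CPM in the remaining members of the Pdgfra library. Fmod had 5853 CPM in them and 3447 CPM in the remaining members of the Lmx1b library, and 3449 CPM in them against 2758 CPM in the remaining members of the Pdgfra library. Lgr5 had 79.6 CPM in them and 21.1 CPM in the remaining members of the Lmx1b library, and 62.8 CPM in them against 33.8 CPM in the remaining members of the Pdgfra library. These 4 genes were higher in the Cilp2- and Thbs4-bearing members in both libraries, each with a wider gap in the Lmx1b library. Megf6 (ratios of 1.93 for Lmx1b and 1.40 for Pdgfra) and Itgbl1 (2.06 and 1.41) were also higher. Other genes of tendon did not follow: Aspn had ratios of 0.943 and 1.04 and Col12a1 of 1.16 and 0.883. Prg4 was lower in both libraries, at 0.626 and 0.435. The Mkx ratio was 0.991 (0.732 to 1.32) for Lmx1b and 1.36 (0.975 to 1.87) for Pdgfra, with intervals that include equal levels. The Kera ratio was 8.84 (3.79 to 20.9) for Lmx1b and 0.895 (0.173 to 2.95) for Pdgfra, on few UMIs. The lowest Ibsp range of the Pdgfra library had more Tnmd, Scx and Lgr5 than these members did, so the Cilp2- and Thbs4-bearing members were not the richest in those genes there.

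The reporter tdTomato marks cells in which Cre was active at the time of tamoxifen, and their descendants. A barcode was called labelled at 16 CP10k or more of tdTomato. Of the members of the Lmx1b library 16 of 485 (3.30%, 1.90 to 5.30%) were labelled, against 48 of 929 (5.17%, 3.83 to 6.79%) of the others with at least 5000 UMIs. Of the members of the Pdgfra library 254 of 317 (80.1%, 75.3 to 84.4%) were labelled, against 394 of 658 (59.9%, 56.0 to 63.6%) of such others. Most members of the Lmx1b library thus lay under the limit and most of the Pdgfra library over it. In the Pdgfra library 214 members were within a factor of 2 of the limit, and the labelled share was 93.4% at 8 CP10k and 25.9% at 32 CP10k, so it depends on where the limit is set. In the Lmx1b library 11 members were that close, and the share at 32 CP10k was 1.24%. Leukocyte-marked barcodes were labelled in 0 of 136 cases in the Lmx1b library, for which a limit of 3 counts allows a share of up to 2.21% and the exact binomial interval one of up to 2.68%, and in 9 of 136 (6.62%) in the Pdgfra library, where endothelium-marked barcodes were labelled in 91 of 265 (34.3%, 28.6 to 40.4%). How much free reporter RNA adds to the reading in members was not tested.

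Among the neighbouring sets the Sfrp2-high barcodes had the highest labelled share, 27 of 56 (48.2%, 34.7 to 62.0%) among the Lmx1b and 103 of 103 among the Pdgfra barcodes. The Mest-, Gldn- and Nell2-high barcodes came next, at 13 of 98 (13.3%, 7.26 to 21.6%) and 111 of 125 (88.8%, 81.9 to 93.7%). Members of the Pdgfra library differed along the Ibsp ranges, with 103 of 106 (97.2%, 92.0 to 99.4%) labelled at the low end, 65 of 76 (85.5%, 75.6 to 92.5%) in the middle and 44 of 76 (57.9%, 46.0 to 69.1%) at the high end, and tdTomato had 3176, 2384 and 1787 CPM in that order. Its median per member was 31.0, 24.2 and 17.8 CP10k in that order, at the high end just above the limit for a labelled barcode. Whether the high-end members under that limit lacked the label was not tested. In the Lmx1b library the labelled members numbered 10 of 190 (5.26%, 2.55 to 9.47%), 3 of 118 (2.54%, 0.527 to 7.25%) and 3 of 155 (1.94%, 0.401 to 5.55%) in the same order, with intervals that overlap. Labelled members of the Lmx1b library were more frequent near the Mest, Gldn and Nell2 limit, with 8 of 73 (11.0%, 4.85 to 20.5%) from 2 to under 4 CP10k of those genes and 8 of 390 (2.05%, 0.890 to 4.00%) below 2 CP10k. Of the driver genes, Lmx1b had a UMI in 6 members of the Lmx1b library (1.24%) and 25 of the Pdgfra library (7.89%), and Pdgfra in 83.7% and 87.4%.

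**Figure D5:**
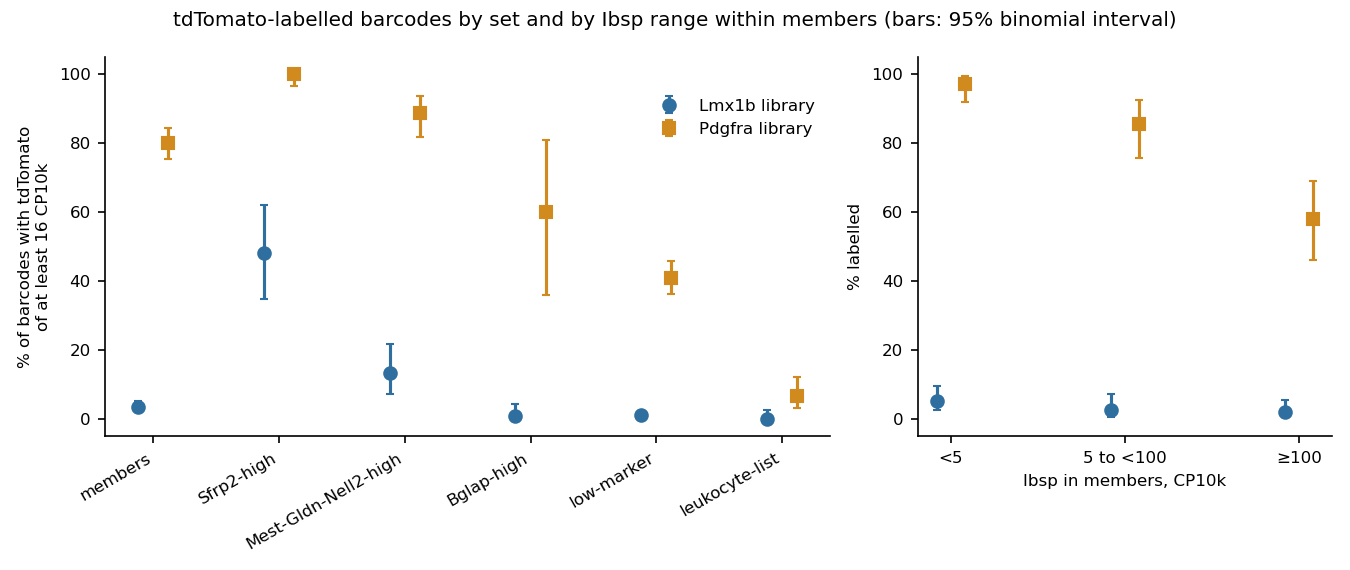
Share of barcodes with tdTomato at 16 CP10k or more, in % with exact 95% binomial intervals, by set (left) and by Ibsp range within members (right), with circles for the Lmx1b library and squares for the Pdgfra library. Members lie at 3.30% for the Lmx1b library and 80.1% for the Pdgfra library, and within members of the Pdgfra library the share is lowest at the highest Ibsp range.

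Cycling barcodes had a higher share in members than in other deep collagen-positive barcodes in both libraries, with counting intervals that overlapped after thinning. After thinning to 5000 UMIs, 7.42% of members (5.25 to 10.1%) and 5.71% of the others (4.30 to 7.40%) had at least 2 UMIs of 6 cell cycle genes in the Lmx1b library. The Pdgfra library had 9.46% of members (6.48 to 13.2%) and 5.17% of the others (3.60 to 7.15%). Before thinning they were 16.1% of members and 11.8% of the others in the Lmx1b library, and 21.5% of members against 10.8% of the others in the Pdgfra one. Of 14 cell cycle genes none was at least 2-fold apart from all others, whereas 5 and 6 were at least 2-fold higher than in the collagen-high others, at medians of 0.92 and 0.87 on the log2 scale.

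Most measured genes were less than 2-fold apart between the members of the 2 libraries. Of 9742 measured genes 20 (0.205%) were at least 2-fold higher in members of the Lmx1b library and 193 (1.98%) at least 2-fold lower than in members of the Pdgfra library, a comparison of 2 libraries with no replicate. Without members carrying another type's markers the numbers were 15 higher and 74 lower. Xist, a transcript of female cells, had a UMI in 22 members of the Lmx1b library (4.54%) and 1 of the Pdgfra library (0.315%). In the Lmx1b library it was in 5.06% of the others of at least 5000 UMIs and 30.4% of Sfrp2-high barcodes. The part of sex in the comparisons of sets and libraries was not tested. Several genes, among them markers of other cell types, were closer between the libraries after that step. Lyz2, a lysozyme of macrophages, had 15.4 CPM in Lmx1b and 136 CPM in Pdgfra members, and 15.3 and 20.6 CPM without those barcodes. Krt14, a keratin of basal epidermis, had 9.21 CPM in Lmx1b and 64.8 CPM in Pdgfra members, and 7.59 and 4.12 CPM without them, the opposite order. Slc7a11, a cystine transporter, had 0.227 CPM in Lmx1b and 50.5 CPM in Pdgfra members, and 0.241 and 1.47 CPM without them. Krt42, a keratin of the nail, had 1.08 CPM in Lmx1b and 76.5 CPM in Pdgfra members, and 1.15 and 3.76 CPM without them. Flt1, an endothelial receptor, had 11.8 CPM in Lmx1b and 52.8 CPM in Pdgfra members, and 3.92 and 11.9 CPM without them. Without those barcodes Krt42 was still 3.28-fold (1.86 to 5.99) and Flt1 3.04-fold (2.24 to 4.16) higher in the Pdgfra library, and Slc7a11 6.08-fold (1.96 to 25.01) on few UMIs.

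Immediate-early genes kept theirs. Zfp36, whose annotation overlaps Gm44710, had 21.8 CPM in Lmx1b and 114 CPM in Pdgfra members, Btg2 35.7 CPM in Lmx1b and 152 CPM in Pdgfra members, and Atf3 6.88 CPM in Lmx1b and 34.4 CPM in Pdgfra members. Without the marker-carrying barcodes Zfp36 was still 5.51-fold and Atf3 7.26-fold higher in the Pdgfra library. These genes respond to tissue dissociation, and its part in the difference was not tested. In the other direction Gpc1, a glypican of the cell surface, had 679 CPM in Lmx1b and 298 CPM in Pdgfra members (2.28-fold, 2.20 to 2.36), and Ndufa4l2, a mitochondrial protein induced by low oxygen (its annotation overlaps Shmt2), 468 CPM in Lmx1b and 236 CPM in Pdgfra members (1.99-fold, 1.91 to 2.07, and 2.24-fold without the marker-carrying barcodes). Mmp3, a secreted protease, had 47.4 CPM in Lmx1b and 14.5 CPM in Pdgfra members (3.28-fold, 2.82 to 3.83). Krt10, Nme2 and Idi1 were 2.70-fold, 2.55-fold and 2.08-fold higher in the Lmx1b library, and without the marker-carrying barcodes Krt10 was 1.66-fold and Idi1 1.89-fold higher. Gt(ROSA)26Sor, the transcript of the locus that carries the reporter in both lines, had 76.7 CPM in Lmx1b and 29.2 CPM in Pdgfra members (2.63-fold, 2.36 to 2.94). Ifitm5, whose annotation overlaps Gm45717, had 381 CPM in Lmx1b and 167 CPM in Pdgfra members, a ratio that was 1.78 without the marker-carrying barcodes. The leading genes C1qtnf3, Fmod and Acan were all higher in the Lmx1b library, by 1.32-fold, 1.38-fold and 1.34-fold, whereas the Lmx1b-to-Pdgfra ratio was 0.987 for Scx and 1.02 for Aspn.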

How the data were processed

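Droplet 3′ single-cell RNA-seq (10x Genomics) was read as the authors' deposited gene-by-barcode matrices of raw UMI counts, which per the file headers came from Cell Ranger 4.0.0, aligned to mm10 with a tdTomato sequence per the labels. They held 28001 features in 5991 barcodes and 66867027 UMIs for the Lmx1b library, and in 5032 barcodes and 49084751 UMIs for the Pdgfra library. Of the features 27722 matched GENCODE vM21 for coordinates and overlaps.

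A minimum of 500 detected genes and a maximum of 10% mitochondrial transcripts left 2793 and 2374 barcodes, and the membership rule was applied to their CP10k. Counts were summed per set and compared as log2(CPM + 1), with 5 CPM as the minimum mean and 2-fold as the call. With 1 library per line no test was run. Shares have exact binomial and ratios exact conditional Poisson intervals at 95%. Scrublet's automatic threshold marked 0 barcodes, so none was removed and the top 0.8% per 1000 barcodes (287 and 203) were left out only as an alternative.

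The members, the 42 gene lists and the comparisons were chosen with earlier results of these data known. Outside the 12 genes of the rule and the lists, the text names the 20 genes with the highest and the 12 with the lowest value of the smaller of both libraries' differences, and the 8 largest differences each way between libraries at 20 CPM or more. Rgs5, tdTomato, Xist and the driver genes were added by role. A further gene of the tendon transcription factor list is not reported here. The software was checked on simulated counts and used python 3.11.15, numpy 2.4.6, scipy 1.17.1, pandas 2.3.3, scanpy 1.11.5 and matplotlib 3.10.9.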

Additional observations from a re-analysis of the deposited data

Results flagged for a closer look

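C1qa, a complement gene of macrophages, differed in direction between the libraries. It was lower in members than in the others of the Lmx1b library, by a log2 difference of −3.65 (1.48 CPM in members and 30.04 CPM in the others), and higher in members of the Pdgfra library, by 0.96 (10.4 CPM in members and 4.88 CPM in the others). In the Pdgfra library 3 members and in the Lmx1b library 0 members carried the leukocyte list at 10 CP10k or more, and without marker-carrying members C1qa stood at 1.39 CPM in the Lmx1b and 1.83 CPM in the Pdgfra library. Mmp3 was higher in members than in the others of the Lmx1b library, by a log2 difference of 0.74, and lower in the Pdgfra library, at −0.92. With 1 library per line neither difference between the libraries was tested.

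Transcripts of the Cre driver, a feature of the deposited matrices outside the comparisons, were counted as CreERT2 in members of the Pdgfra library, with 16 UMIs in 15 barcodes. Members of the Lmx1b library had 0 CreERT2 UMIs.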

How the results depend on the processing

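The share of collagen-positive barcodes that were members moved with the rule's limits. With a marker sum of 6 CP10k it was 22.0% for Lmx1b and 13.3% for Pdgfra, with 71 genes higher and 87.9% of members labelled in the Pdgfra library. With 1000 genes and 5% of mitochondrial transcripts as quality limits it was 39.2% (280 members) in the Lmx1b library and 19.6% (66 members, 191 genes higher, 69.7% labelled) in the Pdgfra library. Over barcodes of at least 5000 UMIs it was 34.3% for Lmx1b and 32.5% for Pdgfra, and without marker-carrying members it was 13.9% in the Pdgfra library. A labelled limit of 8 CP10k gave 93.4% in the Pdgfra library, and 32 CP10k gave 25.9% there and 1.24% in the Lmx1b library.

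Averaging each barcode's CP10k gave 287 (Lmx1b) and 266 (Pdgfra) genes at least 2-fold higher, and 5 CPM added in place of 1 gave 62 in the Pdgfra library. A 1 CPM filter gave 1569 (Lmx1b) and 973 (Pdgfra) lower genes, and between libraries 37 higher and 393 lower. Against the collagen-high others, added after seeing the data, 197 (Lmx1b) and 99 (Pdgfra) genes were lower and 177 higher in the Pdgfra library, and between libraries 74 were lower without marker-carrying members. Genes lower against all others reversed against the collagen-high others, with log2 differences of 0.24 for Dlk1, 0.080 for Gfra3 and 0.030 for Col28a1 in the Lmx1b library, and of 0.17 for S100a8, 0.32 for Cadm4, 0.23 for Dlk1, 1.01 for Gfra3 and 0.76 for Col28a1 in the Pdgfra library. Without marker-carrying members the Pdgfra values were 0.096 for S100a8, −0.75 for Cadm4, −0.27 for Dlk1, 0.067 for Gfra3 and −0.26 for Col28a1. Those of the Lmx1b library were 0.045 for Dlk1, 0.084 for Gfra3 and 0.049 for Col28a1. The cause of these changes was not tested. Leaving out the highest Scrublet scores, median-ratio scaling and leaving out Bglap-high others kept each count within 1.5 times. Among single genes and lists 426 alternative values moved by less than their counting interval, 424 by more, and 8 reversed. No paired analysis was possible because each line had 1 library. Depth limits the Pdgfra library more, since its other collagen-positive barcodes had a median of 3525 UMIs.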

Other observations

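Several FGF signalling genes were lower in members. Of 14 measured genes none was at least 2-fold higher, and 9 were at least 2-fold lower in the Lmx1b library (median log2 −1.28) and 5 in the Pdgfra library (median −0.72). Among all measured genes 8.67% (Lmx1b) and 5.91% (Pdgfra) were lower and only 1.68% and 1.06% higher. This also applies to the IGF counts below. The list's summed level was 584 CPM in members and 720.3 CPM in the others of the Lmx1b library, and 634 CPM in members against 633 CPM in the others of the Pdgfra library. The feedback genes Spry1, Spry2, Spry4 and Dusp6, which growth factor signalling induces, were lower in both. Dusp6 had 5.06 CPM in members and 13.2 CPM in the others of the Lmx1b library, and 8.04 CPM in members against 21.6 CPM in the others of the Pdgfra library. Against the collagen-high others 2 and 1 of 12 measured genes were lower. Of 10 measured IGF genes 5 and 3 were lower and none higher, against 3 and 2 lower relative to the collagen-high others, and Igf2, Igfbp2 and Igfbp5 were lower in both libraries. Igf2 had 14.1 CPM in members and 29.4 CPM in the others of the Lmx1b library, and 16.5 CPM in members against 83.6 CPM in the others of the Pdgfra library. Markers of endothelium and pericytes were present in the others, and their part in the FGF and IGF values was not tested.

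Elastic fibre genes were divided. Eln, Emilin2, Efemp1 and Ltbp4 were at least 2-fold lower in both libraries, whereas Fbn2, the fibrillin of developing tissue, was higher in the Lmx1b library, with 70.4 CPM in members and 24.8 CPM in the others. Relative to the collagen-high others only Emilin2 was lower in the Lmx1b library and Fbln5 in the Pdgfra library, Fbn2 was called in neither, and Ltbp4 was higher in the Pdgfra library. In the Pdgfra library Fbn2 had 46.7 CPM in members and 27.9 CPM in the others. Eln (elastin) had 90.9 CPM in members and 379 CPM in the others of the Lmx1b library, and 152 CPM in members against 379 CPM in the others of the Pdgfra library. Of the inflammation list Ptgs2 (cyclooxygenase 2) was the only 1 higher in both, with 54.8 CPM in members and 24.9 CPM in the others of the Lmx1b library, and 76.8 CPM in members against 36.2 CPM in the others of the Pdgfra library, while Saa3 and Cxcl1 were lower in both. The Ptgs2 ratio to the collagen-high others was 1.34 and 1.06. Among collagens outside the fibrils Col12a1 and Col16a1 were higher and the basement membrane chains Col4a1 and Col4a2 lower in both libraries. Relative to the collagen-high others Col12a1 was 2.55-fold higher in the Lmx1b library and its ratio was 1.35 in the Pdgfra library, Col16a1 had ratios of 1.90 and 1.40, and Col4a1 of 0.939 and 1.22. The endothelial and mural markers were higher in all others than in members, and their part in the Col4a1 and Col4a2 values was not tested.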
